A study of Mus musculus with 4 samples.

Results

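Noradrenaline synthesis, breakdown and reception were followed through 8 genes: the enzyme genes Th, Ddc and Dbh, the monoamine oxidase genes Maoa and Maob, and the receptor genes Adrb1, Adra1a and Adra1b. The members were chosen by hand after the log2 difference between doxycycline and control on these arrays was known: Dbh was selected on its small p, and the others because they stand beside it in the same pathway. The array named 20886 genes, of which 12542 passed the filter on dim probes. All 8 members were among those that passed, measured by 11 probes.

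The arrays came from adult cardiomyocytes of 10-week-old male mice carrying αMHC promoter-driven Cre together with the tetO-controlled OSKM factors (Pou5f1, Sox2, Klf4 and Myc, which together can turn adult cells toward a stem cell state). The αMHC promoter is used by heart muscle cells. Both groups carried this cross: control animals received PBS and treated animals doxycycline, each for 2 days, so drug and factors cannot be told apart. There were 2 control and 2 doxycycline arrays, and no label says whether an array held RNA from a separate animal or from a pool, so p-values here cover only how far these samples differ from each other, which may be technical variation.

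Noradrenaline is the transmitter of the sympathetic nerves that raise the rate and force of the heartbeat. It is made from tyrosine in consecutive steps: tyrosine hydroxylase (Th) forms dopa, aromatic amino acid decarboxylase (Ddc) turns dopa into dopamine, and dopamine β-hydroxylase (Dbh) turns dopamine into noradrenaline inside storage vesicles. Monoamine oxidases on the outer mitochondrial membrane break the amines down, and heart muscle senses noradrenaline through the β1 receptor, which acts through cyclic AMP and protein kinase A, and through α1 receptors, which act through phospholipase C.

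The bases just upstream of the 3 enzyme genes that act in sequence are shown because their measured differences on the arrays were not alike, a contrast that was not tested. Each line gives the 250 bases before a RefSeq start of the gene, written toward the start, from RefSeq's GRCm38.p6 sequence; Ddc has a pair of listed starts. Capitals mark matches to the motif letters searched.
Dbh, chr2:27165257-27165506, plus strand: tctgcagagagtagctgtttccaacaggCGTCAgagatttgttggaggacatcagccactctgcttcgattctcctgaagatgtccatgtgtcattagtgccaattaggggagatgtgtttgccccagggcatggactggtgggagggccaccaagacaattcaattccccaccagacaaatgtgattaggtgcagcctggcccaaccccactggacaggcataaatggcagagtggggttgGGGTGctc
Th, chr7:142899996-142900245, minus strand: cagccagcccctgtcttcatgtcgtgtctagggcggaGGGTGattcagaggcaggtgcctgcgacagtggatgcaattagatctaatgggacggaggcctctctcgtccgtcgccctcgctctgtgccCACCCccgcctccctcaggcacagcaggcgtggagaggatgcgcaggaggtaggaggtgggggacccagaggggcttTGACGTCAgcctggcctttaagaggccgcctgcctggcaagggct
Ddc, chr11:11890409-11890658, minus strand: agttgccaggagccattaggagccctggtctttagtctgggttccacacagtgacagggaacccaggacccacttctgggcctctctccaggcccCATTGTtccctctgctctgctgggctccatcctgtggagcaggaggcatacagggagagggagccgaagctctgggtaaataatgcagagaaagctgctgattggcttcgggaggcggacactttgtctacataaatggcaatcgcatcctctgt
Ddc, chr11:11898145-11898394, minus strand: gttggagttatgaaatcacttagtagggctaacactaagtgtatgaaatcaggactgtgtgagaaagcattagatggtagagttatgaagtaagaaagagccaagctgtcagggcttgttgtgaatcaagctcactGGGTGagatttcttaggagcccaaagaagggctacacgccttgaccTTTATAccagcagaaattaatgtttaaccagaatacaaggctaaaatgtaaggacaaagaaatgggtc

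The search covered both strands of all 32851 promoter stretches of this length. The Th stretch held the full cyclic AMP response element TGACGTCA, 45 to 38 bases before the start, which 1.55% of all stretches held. The shorter core TGACG, which lies within the full element, was in 17.8% of all stretches and also stood in the Dbh stretch, 222 to 218 bases before the start. It was in 4 of the 8 member stretches, with those of Maoa and Adrb1 among them. Letters of motifs bound by the families of the introduced factors were CACGTG (MYC and MAX, in 6.02% of stretches), ATGCAAAT (POU, in 1.6%), CATTGT (SOX, in 10.7%) and CACCC (KLF, in 52%). Dbh, Th and the upstream Ddc start had CACCC, the downstream Ddc start had CATTGT, and CACGTG and ATGCAAAT were in none of the 8 member stretches. Over all 8, CACCC was in 6 and CATTGT in 2. The TATA box letters TATAAA, in 12.4% of stretches, stood 68 to 63 bases before the upstream Ddc start, and TAATTA, a homeodomain core in 4.84% of stretches, was in none of the 8. The Dbh stretch held 2 CpG pairs and 53.2% G and C, the Th stretch 13 and 64.4%, against a median of 52.4% over all stretches. Stretches were matched for 6 of the 8 genes, all but Maob and Adra1a. These matches describe letters only.

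Signal was high enough to read most members. The 75th percentile of the processed signal ranged from 112 to 248 over the arrays, and 50.6% to 51.8% of spots were well above background. All 4 arrays shared a slide and a scan, and their places on the slide followed the groups, so place and treatment cannot be told apart. Control array 1 lay outside the scanner software's accepted range for repeated spots (a variation of 10.99%, against 4.02% to 4.81% on the others) and for spike-in spots. The heart muscle markers were bright on every array, with median levels of 7.80 and 8.75 in control against 8.04 and 8.22 after doxycycline. Levels here are log2 values of the processed signal after subtraction of that array's 75th percentile, differences are doxycycline minus control on that scale, and ± gives the standard error (SE) of the fit with n = 2 arrays per group. Levels of a gene are compared between arrays for the same probe, since probes differ in brightness. In the summed levels of marker lists brighter probes weigh more, so a share of a sum is one of signal and not of transcripts.

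Dbh was the member with the large difference. Its level was 1.69 on control array 1 and 2.74 on control array 2, against -1.74 and -1.09 on doxycycline arrays 1 and 2. Both doxycycline arrays lay below both control arrays, and the 2.78 between the groups at their nearest exceeded the 1.05 between the control arrays and the 0.65 between the doxycycline arrays. The processed signals were 363 and 1141 in control against 74.4 and 90.4 after doxycycline, all well above background, with errors by the scanner software of 7.89 to 114. The difference was -3.63 ± 0.51 (SE), a 12.4-fold lower level, and Dbh ranked 17 of 12542 genes by p. Only 0.104% of genes, 13 with Dbh counted, were lower by at least as much. Since Dbh was taken up for this difference, it is a description and not a test. Without control array 1 the difference was -4.15, and without control array 2 it was -3.11.

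Th, the rate-limiting enzyme of the pathway, had levels of 0.46 and 0.48 in control cells and of -0.32 and -0.13 in treated cells. The doxycycline arrays were lower than both controls and the difference was -0.69 ± 0.39 (SE). Its signals before scaling, 155 and 238 in control cells and 199 and 176 after doxycycline, overlapped, so the separation of Th appears after the arrays are scaled. Ddc, the decarboxylase between them, was dim. It read -2.55 and -2.60 in control cells and -1.97 and -2.21 after doxycycline, and differed by 0.49 ± 0.39 (SE) from signals of 19.2 to 63.4. A second Ddc probe, made to another transcript accession, failed the background flag on all 4 arrays, with signals of at most 4.84. With normexp background correction the Ddc difference was -0.17. By these values Dbh and Th lay lower and Ddc did not. Neither Th (limma adjusted p = 0.841) nor Ddc (limma adjusted p = 0.900) passed the test over all genes, and the contrast between the genes was not tested.

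**Figure D1:**
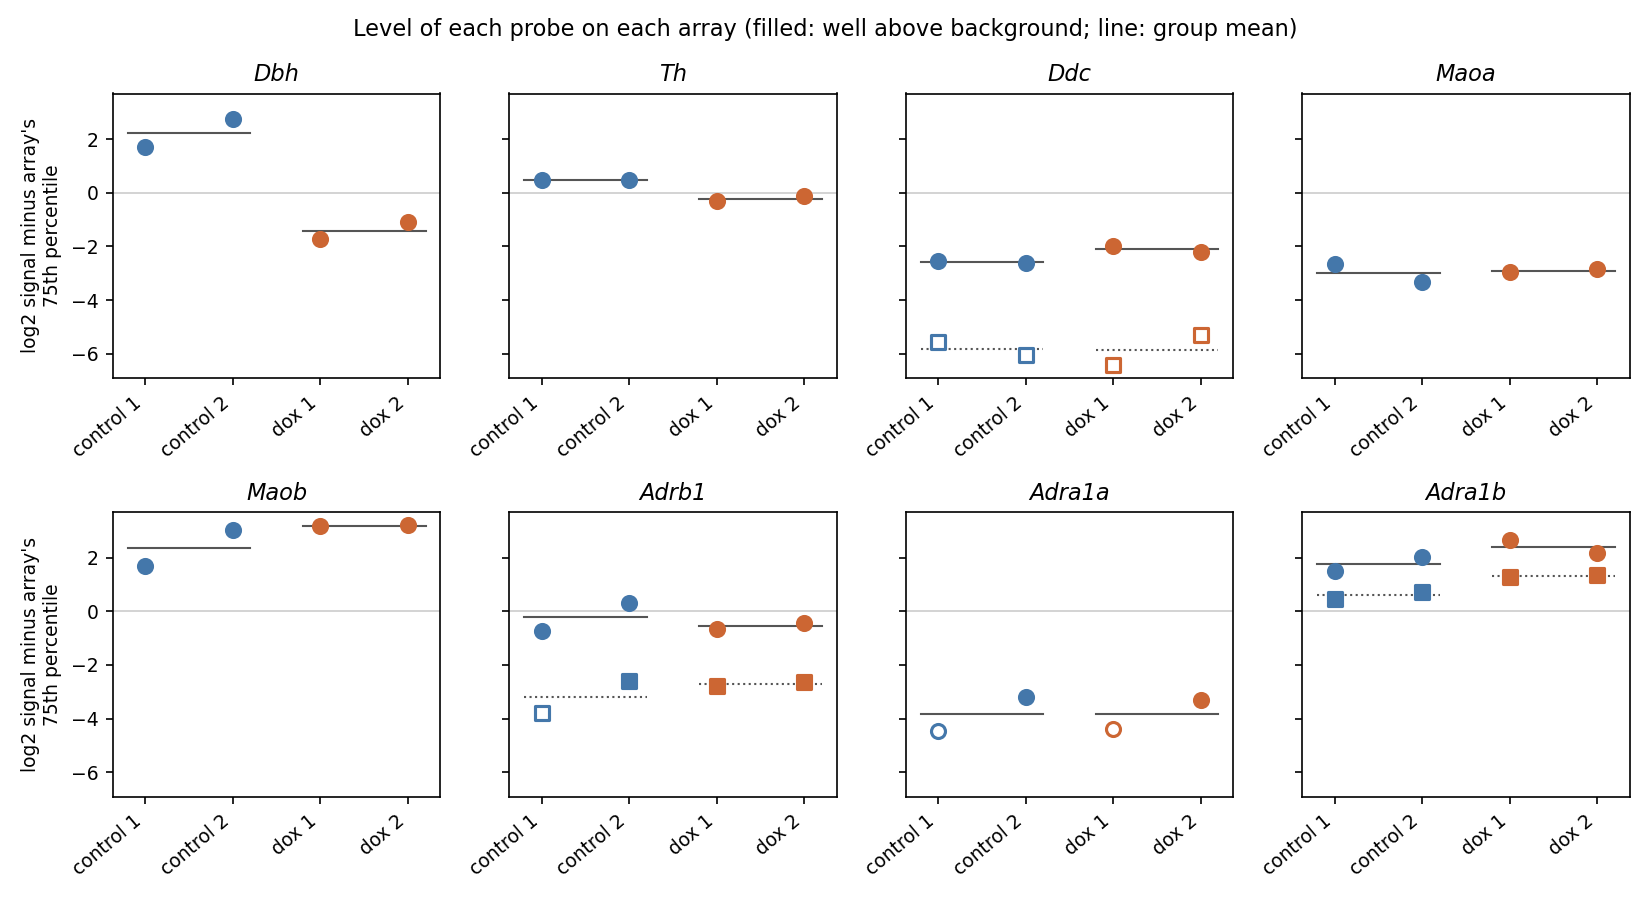
Level of each probe (log2 signal minus the 75th percentile of the array, vertical axis) on the 2 control (blue) and 2 doxycycline (orange) arrays, 1 panel per gene; circles are the probe used for the gene, squares a further probe, open symbols are not well above background and lines are group means. Dbh drops from 1.69 and 2.74 to -1.74 and -1.09, while the groups of the other genes lie close together or overlap.

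The monoamine oxidases did not share that pattern. Maob, the form that prefers phenylethylamine, read 1.68 on control array 1, 3.04 on control array 2, and 3.16 and 3.22 on the doxycycline arrays. Control array 1 was the low array and the other 3 were close, so the difference of 0.83 ± 0.54 (SE) became 0.15 without control array 1 and 1.52 without control array 2. Maoa, the form with the higher affinity for noradrenaline and serotonin, was dim, with signals of 16.9 to 31.8. It read -2.66 and -3.34 in control and -2.97 and -2.86 after doxycycline, an overlap with a difference of 0.087 ± 0.43 (SE) that was -0.21 with normexp background correction. The genes are neighbours on chromosome X, with 0 other annotated genes between them in RefSeq.

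Of the receptor genes Adra1a, Adra1b and Adrb1, Adra1b alone had groups that did not overlap. The α1B receptor signals through Gq proteins to phospholipase C. Its brighter probe read 1.48 and 2.02 in control against 2.66 and 2.17 after doxycycline, a difference of 0.66 ± 0.44 (SE). A second probe read 0.48 and 0.73 in control cells and 1.28 and 1.37 after doxycycline, a difference of 0.72 ± 0.39 (SE), so on both probes the doxycycline arrays lay above both control arrays. Without control array 1 the brighter probe's difference was 0.39.

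Adrb1, the main β receptor of heart muscle, overlapped between the groups. It read -0.75 and 0.32 in control cells and -0.68 and -0.43 after doxycycline, a difference of -0.34 ± 0.49 (SE). A dimmer probe for the same transcript accession gave the opposite sign, 0.49, with levels of -3.78 and -2.61 in control against -2.79 and -2.62 after doxycycline, and it was not well above background on control array 1. On both probes control array 1 was the lowest array. Without control array 1 the brighter probe's difference was -0.88, without control array 2 it was 0.19, and with arrays scaled to their medians it was 0.0051. Adra1a, the other α1 receptor of heart muscle, was at the edge of detection, with signals of 5.12 to 19.6, and it was well above background on control array 2 and doxycycline array 2 alone. Its levels were -4.45 and -3.19 in control against -4.40 and -3.30 after doxycycline, and the difference was -0.027 ± 0.60 (SE). At this signal no difference in Adra1a was detectable.

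Over all genes, limma with Benjamini-Hochberg adjustment called 0 of 12542 (0%) at an adjusted p under 0.05, and 0 of the 8 members. With no adjustment, 886 genes (7.06%) had p under 0.05, of which 398 (3.17%) were higher and 488 (3.89%) lower; Dbh was the 1 member among the lower and 0 members were among the higher. Both doxycycline arrays lay above both controls for 3 of the 8 members (Ddc, Maob and Adra1b), where 14.5% of all genes did, and below for 2 (Dbh and Th), where 20.8% did. The median difference of the 8 was 0.030 (-0.25 without control array 1), beside -0.061 for all genes, and 4 lay on each side of 0, where 54.8% of all genes lay below. Nothing is read from these member counts, because the same contrast was known when the members were named. With 2 arrays against 2, a permutation test of any gene cannot give a p below 0.333.

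**Figure D2:**
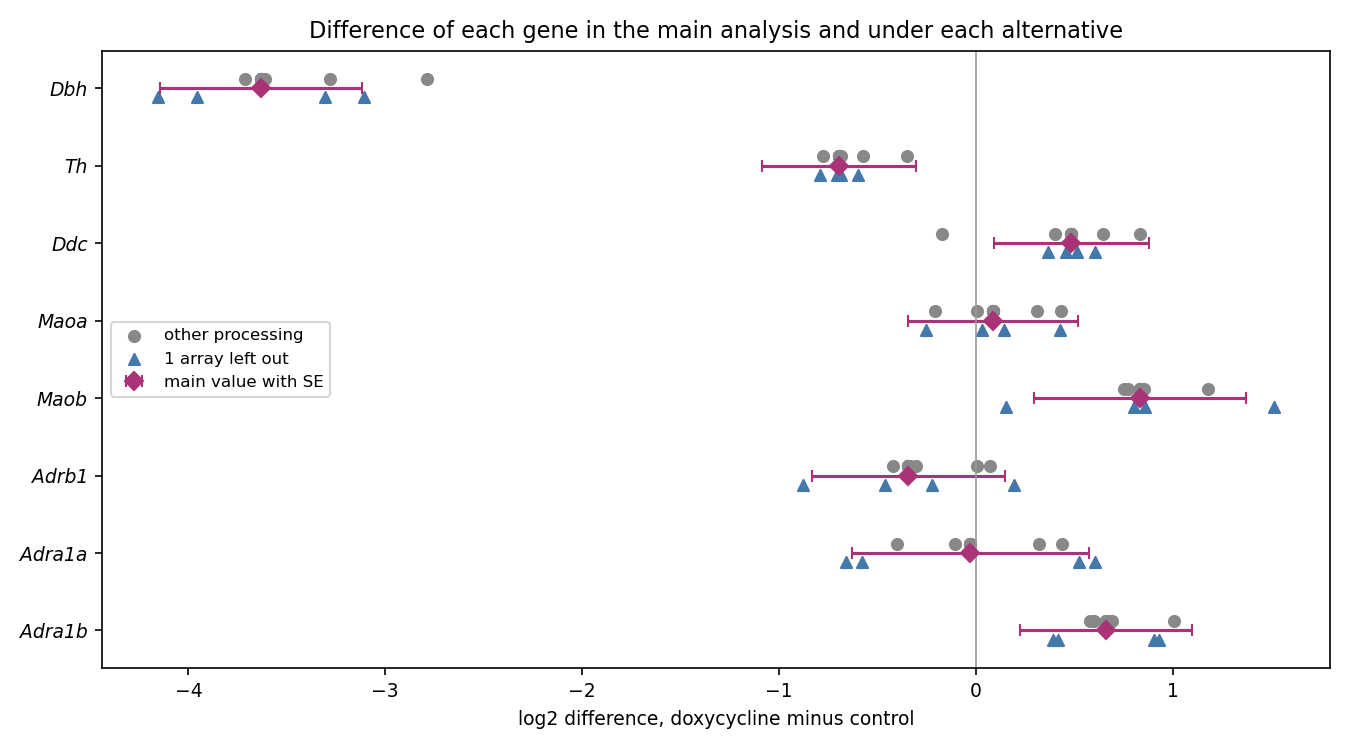
Difference between doxycycline and control (log2 scale, horizontal axis) for each gene in the main analysis with its SE (diamonds), with 1 array left out (triangles) and under other processing (circles). Dbh stays between -4.15 and -2.79, Th stays below 0 and Maob and Adra1b above it, while Ddc, Maoa, Adrb1 and Adra1a have values on both sides of 0.

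The rest of the pathway was described through lists, whose genes were also chosen with earlier results of these data known. In the synthesis and cofactor list all 12 genes were tested, 6 lay above and 6 below control, and the median difference was 0.068. Without control array 1 the median turned to -0.44, with 4 genes above control. Pnmt, the enzyme that turns noradrenaline into adrenaline, differed in the other direction from Dbh. It read -1.87 and -1.87 in control cells and -0.32 and -0.32 after doxycycline, a difference of 1.55 ± 0.39 (SE, limma adjusted p = 0.377). The close agreement within each group did not bring it past the test over all genes. Cyb561, the vesicle cytochrome that supplies Dbh with reducing power, differed by 1.10 ± 0.59 (adjusted p = 0.827), with overlapping groups. Gch1, the entry enzyme for the cofactor tetrahydrobiopterin that Th needs, differed by 0.71 ± 0.52 on its brightest probe and by -0.80 on another that was also well above background on every array, so its direction was not settled.

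Genes of amine storage and uptake were mostly not detected. Of 12 listed, 4 passed the filter, with a median difference of -0.49 that was -0.12 without control array 1, and 0 of the 4 had an unadjusted p under 0.05. The noradrenaline transporter gene Slc6a2, the vesicle transporter gene Slc18a1 and the granule protein genes Chga and Scg2 were not well above background on any array, with signals of at most 8.42. The neuronal vesicle transporter gene Slc18a2 was so on 1 array, with a highest signal of 13.4. Chgb, another granule protein gene, was well above background on both doxycycline arrays and on neither control array, so it passed the filter through doxycycline alone. It read -5.63 and -4.08 in control against -3.99 and -3.79 after doxycycline. Without control array 1 the Chgb difference was 0.19, so the flags are not read as a rise.

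Among the other enzymes of amine breakdown, Sult1a1 had a larger difference than either monoamine oxidase, and the gap between them was not tested. Of 11 listed genes 10 were tested, 8 lay above control and 2 below, the median was 0.24, and both doxycycline arrays exceeded both controls for 4, as for 14.5% of all genes. Sult1a1, a sulfotransferase of phenols and amines, differed by 2.02 ± 0.45 (adjusted p = 0.331), and a second probe by 2.11. Aldh2, the mitochondrial aldehyde dehydrogenase, differed by 0.81 ± 0.40 (adjusted p = 0.795) and Aldh9a1, which oxidises aminoaldehydes, by 0.71 ± 0.40 (adjusted p = 0.842). None of these passed the test over all genes.

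Of 8 adrenergic receptor genes listed, 6 were tested, with a median difference of -0.27 (-0.77 without control array 1), 1 above control and 5 below. Adra1d, the third α1 receptor, was well above background on both control arrays and on neither doxycycline array. It read -3.05 and -2.42 in control, and its level was at least 2.82-fold lower after doxycycline (adjusted p = 0.325), the bound being taken against the lowest signal well above background on each array. It passed the filter through control alone, and its p rests on doxycycline values at background. A second Adra1d probe was below background on all arrays. Adra2c, an α2 receptor that restrains noradrenaline release, read -1.64 and -2.94 in control and -5.22 and -3.10 after doxycycline, a difference of -1.87 ± 0.79 (adjusted p = 0.706), and doxycycline array 1 was not well above background. Without that array the Adra2c difference was -0.81. Adra2b differed by -0.20 ± 0.41. Adra2a and Adrb3 were not well above background on any array.

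**Figure D3:**
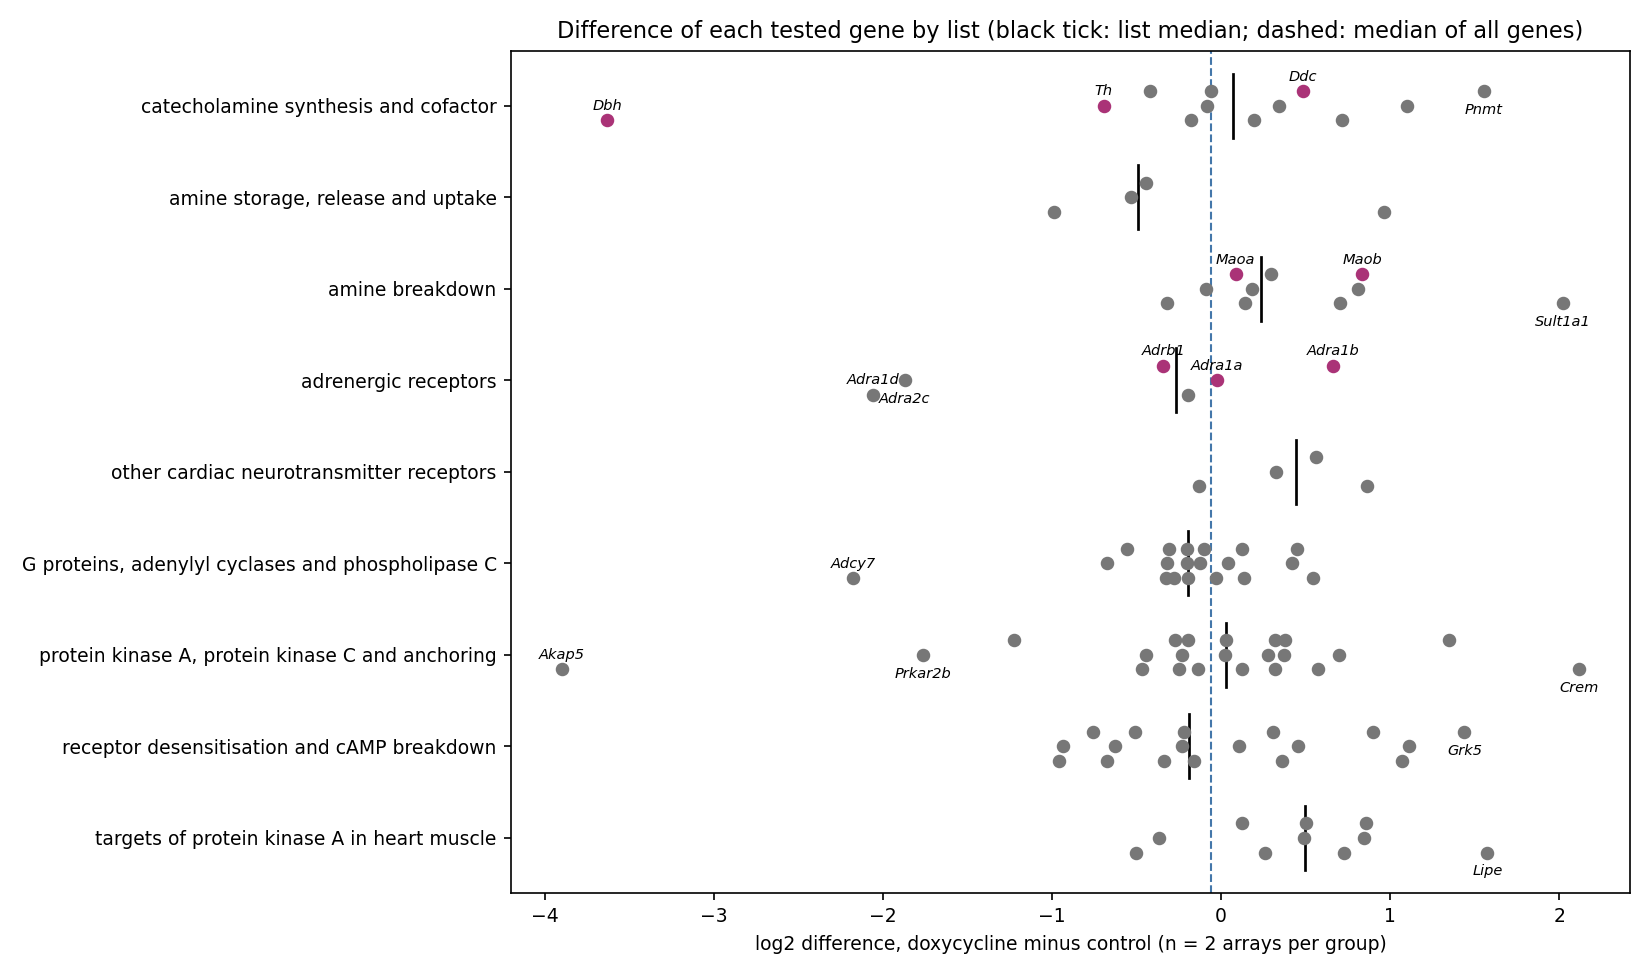
Difference between doxycycline and control (log2 scale, horizontal axis, n = 2 arrays per group) for each tested gene, by list; the 8 members are in purple, black ticks are list medians and the dashed line is the median of all 12542 genes. Dbh and Akap5 stand at the low end, Crem and Sult1a1 at the high end, and list medians lie between -0.49 and 0.49. Akap5 and Adra1d are drawn at their measured values, although neither was well above background after doxycycline.

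Downstream of the receptors, most G protein, cyclase and phospholipase genes had small differences. Of 19 tested, 6 lay above and 13 below, with a median of -0.19 (-0.088 without control array 1), and Adcy7, an adenylyl cyclase abundant in blood cells, was the 1 with an unadjusted p under 0.05. It read -0.60 and -1.93 in control against -3.95 and -2.94 after doxycycline (-2.18 ± 0.60, adjusted p = 0.434). The Gs gene Gnas, which carries the β1 signal, differed by 0.041 ± 0.40, Gnaq by -0.20 ± 0.43, and the heart muscle cyclases Adcy5 and Adcy6 by -0.13 ± 0.41 and 0.12 ± 0.45. The other probes for Adcy5, well above background on every array, gave 0.68 and 0.31, so its sign was not settled.

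The kinase and anchoring list had a median of 0.026 over 22 genes, with 12 above and 10 below control, and of -0.25 with 9 above when control array 1 was left out. Akap5, which anchors protein kinase A at the membrane near β receptors, read -1.23 and -2.32 in control cells and failed the background flag on both doxycycline arrays, at least 5.48-fold lower (adjusted p = 0.165). Like Adra1d, it passed the filter through control alone, and its p rests on doxycycline values at background. Crem, a cyclic AMP-responsive transcription factor gene, read -1.90 and -0.77 in control cells and 0.90 and 0.65 after doxycycline, a difference of 2.12 ± 0.50 (adjusted p = 0.350) and 1.55 without control array 1. A second Crem probe, well above background on every array, differed by 0.28, and the remaining probe was below background throughout, so the probes did not agree in size. Prkar2b, a regulatory subunit of protein kinase A, differed by -1.76 ± 0.58 (adjusted p = 0.552), but was well above background on 1 doxycycline array alone, ran from -2.35 to -1.17 with 1 array left out, and had no other probe above background. Creb1 differed by 1.35 ± 0.51 (adjusted p = 0.661), by 0.81 without control array 1 and by -0.36 on a further probe.

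Among desensitisation and cyclic AMP breakdown genes, 8 of 18 lay above control, with a median of -0.19. Without control array 1 it was 9 of 18, and the median turned to 0.021. Grk5, a kinase that phosphorylates active adrenergic receptors, read 0.47 and 0.41 in control against 1.82 and 1.94 after doxycycline. The arrays of each group nearly coincided, and the difference was 1.44 ± 0.39 (SE, 2.71-fold, adjusted p = 0.419) and 1.47 without control array 1. The related Grk2 differed by -0.34 ± 0.40. Rgs2, which limits Gq signals, differed by 1.07 ± 0.50 (adjusted p = 0.779) and by -0.015 on a second probe. Pde3a differed by 0.90 ± 0.46 (adjusted p = 0.804) on a probe well above background on both doxycycline arrays but only 1 control array. A second Pde3a probe differed by 0.39, with overlapping groups. Arrb2, an arrestin, differed by -0.94 ± 0.51 (adjusted p = 0.834). Targets of protein kinase A in heart muscle had a median of 0.49 over 10 genes, and -0.28 without control array 1. The hormone-sensitive lipase gene Lipe differed by 1.57 ± 0.40 (adjusted p = 0.379) and by 1.70 without control array 1, whereas phospholamban, Pln, differed by 0.26 ± 0.64 and by -0.65 without it. No gene of these downstream lists passed the test over all genes.

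The arrays measured a cell preparation, in which fewer cells of a type and less RNA per cell cannot be told apart. Dbh and Th are also markers of sympathetic neurons, and 11 of that list's 18 genes were tested. Their median difference was -0.64 (-0.47 without control array 1), with 6 below and 5 above control. The summed level of the list was 5.60 and 5.23 in control against 4.96 and 5.99 after doxycycline. The probe of Snap25, a synaptic protein gene, made up 69.0% to 90.3% of that sum. Without Snap25 the sum, which still held Dbh, was 3.29 and 3.54 against 1.89 and 2.63. Dbh was chosen for its fall, so that separation is not read as a fall of the other markers. With Dbh left out and Snap25 kept, the summed levels of the groups overlapped. A sum without both genes was not calculated. Slc6a2, Npy, Chga and Syt1 were not well above background on any array. Phox2a, a transcription factor of noradrenergic neurons, differed by 0.25 and Hand2, which heart muscle also expresses, by 0.026, and both had values on each side of 0 with 1 array left out. Prph, a neuronal filament gene, differed by -1.56, was well above background on both control arrays but 1 doxycycline array, and ran from -2.39 to -0.73 with 1 array left out. Elavl4 differed by -0.86, was well above background on all 4 arrays, and ran from -1.23 to -0.50 with 1 array left out. Gata3 differed by -1.48, Stmn2 by -0.64 and Uchl1 by 0.72, each with overlapping groups. In the chromaffin cell list, 6 of 8 genes were tested, among them Dbh, Th and Pnmt. Their median difference was -0.20 and turned to 0.070 without control array 1. Summed levels were 2.96 and 3.27 in control against 1.60 and 2.23 after doxycycline. Without Dbh, which was chosen for its fall, those sums were 2.19 and 1.57 against 1.45 and 2.08, and the groups overlapped. All sums with a gene left out were added after seeing the data.

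Several lists of other cell types were also lower after doxycycline in their medians, less so without control array 1, and their part in the Dbh difference was not tested. All 6 tested Schwann cell markers of 10 lay below control, where 54.8% of all genes did, with a median of -1.53 and summed levels of 2.60 and 1.01 against -0.24 and 0.65. Among them, Ngfr passed the filter through control alone, and its fall rests on doxycycline values at background. The 9 fibroblast markers had a median of -2.13 (summed levels 7.78 and 6.10 against 6.33 and 6.43), the 6 macrophage markers -1.18 (4.25 and 2.74 against 2.24 and 2.49), the 9 smooth muscle and pericyte markers -0.99 (5.99 and 5.88 against 4.69 and 3.99) and the 5 red cell markers -1.62 (8.36 and 6.08 against 5.52 and 5.78). Without control array 1 these medians were -0.94 for Schwann cells, -1.31 for fibroblasts, -0.49 for macrophages, -0.25 for smooth muscle and pericytes and -0.42 for red cells, beside -0.11 for all genes. The Dbh difference without that array was -4.15. Control array 1 exceeded control array 2 for the fibroblast, Schwann, macrophage and red cell markers, by a median over members of 1.66, 1.60, 1.65 and 2.29. For Dbh, control array 1 was the lower by 1.05, and what these values mean for the Dbh difference was not tested. The 10 heart muscle markers had a median difference of -0.15 (-0.45 without control array 1) and control array 1 was below control array 2 by 0.94. The 9 endothelial markers had a median of -0.15 that turned to 0.60 without control array 1, which exceeded control array 2 by 1.70 there. The median was 0.11 for the 5 mesothelial markers (-0.23 without control array 1) and 1.57 for the 2 of 6 adipocyte markers tested, where Adipoq, Plin1 and Lep were never well above background. Of the 6 parasympathetic neuron markers Chat alone was tested (-0.61). Of the 9 conduction and pacemaker markers, 5 were tested (median -0.74, and -0.29 without control array 1), and Hcn4, Shox2 and Isl1 were not well above background on any array.

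**Figure D4:**
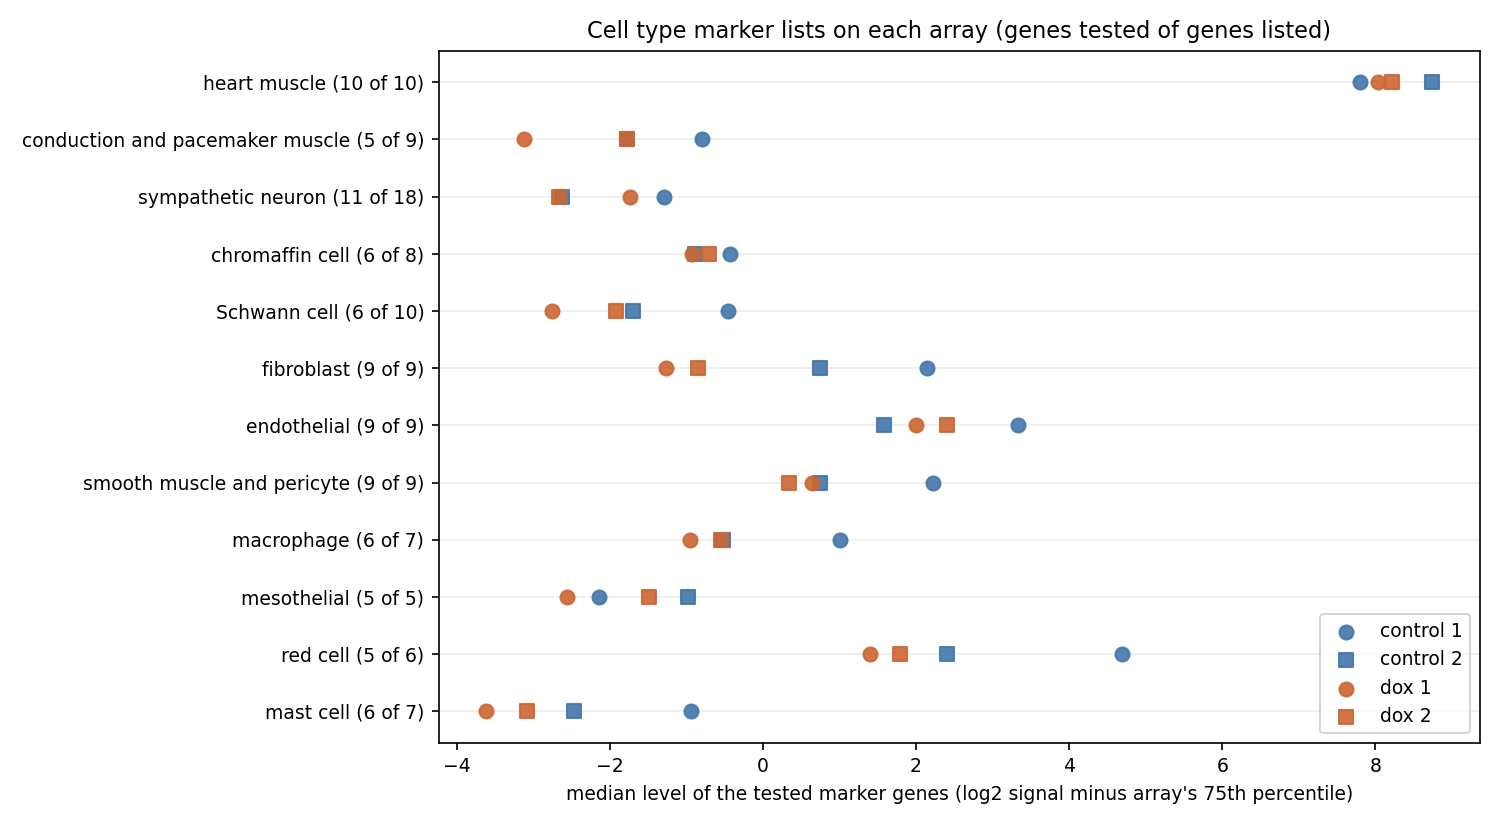
Median level of the tested genes of each marker list (log2 signal minus the 75th percentile of the array, horizontal axis) on the control (blue) and doxycycline (orange) arrays; circles are array 1 and squares array 2 of a group. Heart muscle markers lie near 8 on all 4 arrays. Control array 1 is the highest array for every list drawn, among them the sympathetic neuron and chromaffin cell lists, except heart muscle and mesothelial.

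The genes whose levels over the 4 arrays were most like those of Dbh, by the Euclidean distance between levels centred on their mean, were Arnt2 (0.42), Rtn4r (0.55), Grhl2 (0.74), Slc35f1 (0.92) and Mdga1 (0.99). All 5 lay below the array's 75th percentile even in control, with mean levels of -3.28 to -1.93. Unlike Dbh, none of the 5 was well above background on either doxycycline array, so their distances rest on values at background and their falls are bounds, of at least 1.93-fold (Slc35f1) to at least 4.91-fold (Mdga1) lower. None passed the test over all genes, and the likeness rests on 4 arrays.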

How the data were processed

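The authors read 1-colour Cy3 scans with Agilent Feature Extraction 10.7.1.1, per the file headers. Their deposited intensity values are linear, with background subtracted and spatial trends removed inside each array, and carry no normalization across arrays; other deposited columns, such as the background and outlier flags, were used as given. Groups come from the sample titles. Accessions of 27508 probes were named through RefSeq GRCm38.p6, for names only, since the design build is mm9; 1641 RefSeq accessions and 10280 other identifiers were left unnamed.

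Signals were log2-transformed, the 75th percentile of the array's non-control spots was subtracted, outlier spots were dropped and spots of a probe averaged. Probes well above background on at least 2 arrays were kept, and the brightest stood for a gene. Differences were fitted over all 12542 genes with limma 3.58.1 in R 4.3.3 (two-sided, 4.69 prior and 2 residual degrees of freedom, Benjamini-Hochberg adjustment). The fit was tested on simulated data, and the choice of the brightest probe and the averaging of spots on small made-up values. Bounds use the lowest signal well above background per array. Figures used matplotlib 3.10.9.

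The members, lists and alternatives were chosen with earlier results of these data known. Named genes were the members, up to 4 genes per list with the smallest p, undetected list genes, and the 5 genes most like Dbh; Gnas, Gnaq, Adcy5, Adcy6, Grk2, Pln, Aldh9a1, Phox2a, Hand2, Prph and the marker genes given by value were named for their roles after the values were seen. A few genes were taken out of the lists, with their counts and medians recomputed, and are not reported here.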

Additional observations from a re-analysis of the deposited data

How the results depend on the processing

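Of the 16 alternatives run (15 for Adra1a, which a filter on all 4 arrays removes), Dbh, Th, Maob and Adra1b kept their direction in all. Dbh passed an adjusted p of 0.05 under scaling to the median (-3.28, adjusted p = 0.013), with the replicate block (-3.63, adjusted p = 1.2e-06) and when either doxycycline array was left out, over a range of adjusted p from 1.2e-06 to 0.338. Leaving out 1 array at a time gave -4.15 to -3.11 for Dbh. Directions reversed with normexp for Ddc (-0.17) and Maoa (-0.21), with the mean of a gene's probes for Adrb1 (0.074), with scaling to the median for Adrb1 (0.0051) and Adra1a (0.32), and with quantile normalization for Adra1a (0.44). Leaving out 1 array gave -0.25 to 0.43 for Maoa, -0.88 to 0.19 for Adrb1 and -0.66 to 0.60 for Adra1a; the cause was not tested. The genes called over the whole array numbered 128 with scaling to the median (95 higher, 33 lower), 295 with the replicate block, 0 to 171 with 1 array left out, and 873 at an unadjusted p under 0.05 with a log2 difference of at least 1. Scaling to the median moved the median of all genes from -0.061 to 0.29, and dropping the filter moved it to -0.31. The labels do not say that replicate numbers pair the arrays, and same-numbered arrays did not deviate together (r = -0.085 across genes), so the block shares only a number; with it, or without a doxycycline array, the fit gave all genes almost 1 shared spread. Where a group kept 1 array, its spread was assumed to be that of the other group. Signal near background limits Maoa, Ddc and Adra1a.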

Other observations

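Receptors for other transmitters of the heart were read beside the adrenergic ones. Of 11 listed genes 4 were tested, 3 above control and 1 below, with a median of 0.44. The adenosine receptor gene Adora1 read -2.23 and -1.33 in control cells and -0.70 and -1.13 after doxycycline, a difference of 0.86 ± 0.47 (SE), and the muscarinic receptor gene Chrm2 differed by 0.56 ± 0.59 with overlapping groups and by -0.24 without control array 1. The dopamine receptor genes Drd1 and Drd2 and the neuropeptide Y receptor genes Npy1r and Npy2r were not well above background on any array. In the mast cell list 6 of 7 genes were tested, 4 below control and 2 above, with a median of -1.15 (-0.625 without control array 1). The member Maob (0.83) was among those above. The protease gene Mcpt4 differed by -2.76, with 1 doxycycline array well above background. Kit differed by -1.59 (-0.82 without control array 1) and Tpsb2 by -0.72. Cpa3 was at least 2.62-fold lower, but passed the filter through control alone. Hdc, which makes histamine, differed by 1.36 (0.59 without control array 2).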
